A study of Homo sapiens with 6 samples.

Results

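The sites described here are the RNA stretches recovered from cells that had received no ultraviolet (UV) light, in a study of the RNAs bound by AEG1 (the protein of MTDH). They comprise every site listed for the 3 libraries labelled as negative controls, 271 of 72385 sites in 6 libraries. There were 60 and 90 sites in the HITS-CLIP controls 1 and 2 and 121 in the PAR-CLIP control. Membership follows from the sample labels and not from any measured value.

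All 6 libraries came from AEG-1-14, a line derived from the hepatoblastoma line HepG3 that stably expresses AEG1 carrying a C-terminal HA tag. The controls therefore carried the tagged protein too, and no library from untagged cells was analysed here. HITS-CLIP cells were irradiated at 254 nm in 2 AEG1 libraries and left without UV in 2 controls. PAR-CLIP cells were irradiated at 365 nm in 1 AEG1 library and left without UV in 1 control; a photoreactive nucleoside is not named in the labels. Lysates were treated lightly with RNase I, the tagged protein was pulled down through its HA tag, complexes were separated by SDS-PAGE and blotted, and the RNA released from the blot was sequenced in 50 nt single reads. Nothing in the labels states that the replicates of HITS-CLIP were separate cultures, and the spread between them may be technical.

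CLIP (crosslinking and immunoprecipitation) uses UV light to join a protein covalently to the RNA it touches, so that the complex survives harsh washing and a denaturing gel. Without UV no such bond forms, and what is sequenced is RNA that stayed with the antibody, the beads or the blot by other means. Such RNA is often drawn from abundant messages, which in hepatocyte-like cells include those of secreted plasma proteins. AEG1 is a membrane-associated protein with a part of its pool at the endoplasmic reticulum, where messages of secreted proteins are translated.

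Each site has a position on a RefSeq mRNA and a score given by the authors. The score was read from its values as log2, in which a step of 1 is a factor of 2, but neither the scale nor the normalization is stated. Scores were compared only on the same transcript, and a difference between libraries includes any difference in depth, which is unknown. Of 271 control scores, 79 were the lowest recorded on their transcript in any library. Of 20 hepatocyte or hepatoblast markers, 19 had a site in some library, DLK1 being the exception, and 5 had one in a control. Of 15 markers of blood, endothelium and connective tissue, 4 had a site in an AEG1 library (CD14, LYZ, CD68 and ACTA2) and 0 had one in a control. Over all genes with a site in any library, 1.76% had one in a control, and 4 genes are too few to be read against that share. No test between the control types was run, because the PAR-CLIP control is a single library without a spread of its own, and an exact permutation test of 2 libraries against 1 has 3 arrangements and a p no lower than 0.333.

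The 2 methods left different kinds of background. The HITS-CLIP controls consisted mostly of very short sites, each alone on its mRNA. The PAR-CLIP control consisted almost wholly of wider sites. Of its 117 sites of more than 25 nt, 35 lay on messages of plasma proteins (29.9%). Others lay on messages of the cytoskeleton, translation and ferritin, and many on genes outside these groups. In number the libraries were closer than in kind. The HITS-CLIP controls held 75 ± 21.2 sites on 63.5 ± 20.5 genes (SD, n = 2), and the PAR-CLIP control 121 sites on 66 genes, a ratio of 1.61 for sites (1.34 and 2.02 against either HITS-CLIP control) and 1.04 for genes (0.846 and 1.35). The gene ratio lay on either side of 1 depending on which HITS-CLIP control was used. The mRNA covered was 2390 and 3090 nt in the HITS-CLIP controls and 8551 nt in the PAR-CLIP control.

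Site width separated the methods with no overlap of the library values. The median width was 21 nt in both HITS-CLIP controls, with ranges of 18 to 284 and 18 to 199 nt, and 71 nt in the PAR-CLIP control, with a range of 19 to 139 nt. Sites of 25 nt or less made up 39 of 60 in HITS-CLIP control 1 (65.0%, exact 95% interval 51.6 to 76.9), 61 of 90 in HITS-CLIP control 2 (67.8%, 57.1 to 77.2) and 4 of 121 in the PAR-CLIP control (3.31%, 0.908 to 8.25). The intervals cover counting error only. The same share of the AEG1 libraries was 6.8% and 7.01% in HITS-CLIP and 0.241% in PAR-CLIP, so the short class took a larger share of the controls of either method, in PAR-CLIP on 4 sites. Median widths of the AEG1 libraries were 51 and 52 nt in HITS-CLIP and 73 nt in PAR-CLIP, which places the PAR-CLIP control close to its AEG1 library and the HITS-CLIP controls far from theirs.

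**Figure D1:**
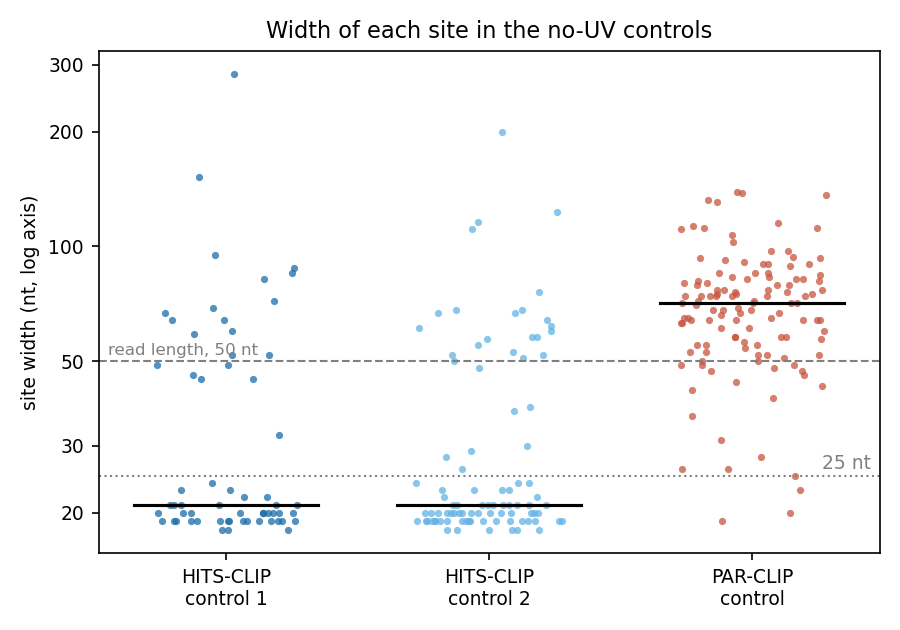
Width of every site in the 3 no-UV controls, in nt on a log axis, with 1 point per site and a black line at each library's median. The HITS-CLIP controls have their medians at 21 nt with a thin upper group, while most PAR-CLIP control sites lie above the 50 nt read length (dashed line).

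The excess of the PAR-CLIP control lay in the wider sites. Sites of more than 25 nt numbered 21 and 29 in the HITS-CLIP controls, on 10 and 17 genes, and 117 in the PAR-CLIP control, on 62 genes. The ratio of the PAR-CLIP value to the HITS-CLIP mean was thus 4.68 for these sites and 4.59 for their genes. Short sites went the other way, at a mean of 50 ± 15.6 (SD, n = 2) in HITS-CLIP against 4 in PAR-CLIP.

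Short and wider sites were never found on the same mRNA within a control. All 39 and 61 short sites of the HITS-CLIP controls were the sole site of their gene in that library. Genes with at least 3 sites numbered 1 and 1 in the HITS-CLIP controls, in each case ALB, and 8 in the PAR-CLIP control, where they held 56 of 121 sites (46.3%). ALB, the message of serum albumin, had 11, 9 and 13 sites in HITS-CLIP control 1, HITS-CLIP control 2 and the PAR-CLIP control, or 43.7%, 26.3% and 12.4% of the covered nt.

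Of 8197 genes with a site in any of the 6 libraries, 144 had a control site (1.76%). By library these were 49 genes (0.598%), 78 genes (0.952%) and 66 genes (0.805%). Both HITS-CLIP controls had a site on 33 genes, 67.3% of the genes of control 1 and 42.3% of those of control 2. The PAR-CLIP control shared 16 genes with either HITS-CLIP control, 24.2% of its own genes and 17.0% of the 94 HITS-CLIP genes. Without HITS-CLIP control 2 the 16 shared genes became 10, and without control 1 they became 12. Genes with a site in at least 2 controls numbered 43 (0.525%).

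Genes shared between the methods were mainly those with wider sites, but the PAR-CLIP control had short sites on only 4 genes. As a share of the PAR-CLIP genes, 25% of those with short sites and 22.6% of those with wider sites were shared. Genes with a short site in any control numbered 77 (0.939%), of which 26 were shared by the HITS-CLIP controls and 1, ABCC3, by HITS-CLIP and PAR-CLIP. Genes with a site of more than 25 nt numbered 70 (0.854%), 22 of them in a HITS-CLIP control (0.268%). Of those 22, 14 (63.6%) also had such a site in the PAR-CLIP control, where they were 22.6% of the 62 genes. Among the 14 were A2M, ALB, C3, DKK1, EEF1A1, FTH1, GC, P4HB, PLCG2, PSAP, RELN, SERPINA1 and TM9SF2.

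**Figure D2:**
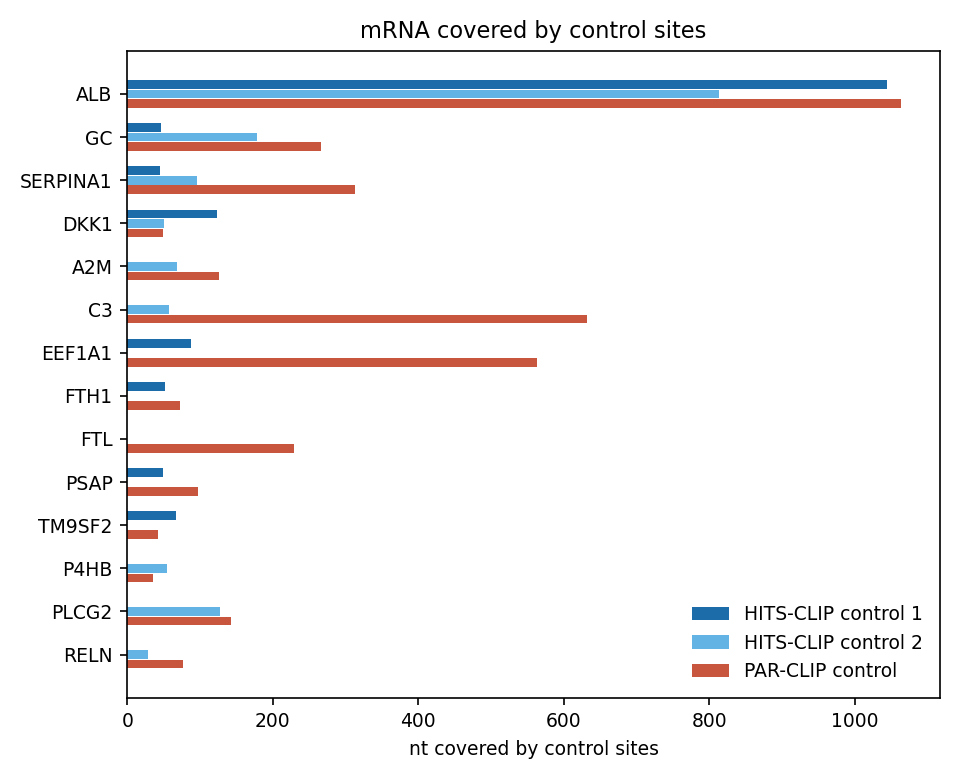
Length of mRNA covered by control sites, in nt, for 13 of the genes with sites of more than 25 nt in controls of both methods and for FTL, with 1 bar per control library. ALB is covered to a like extent in all 3 controls, from 814 to 1064 nt, while C3 and EEF1A1 have their long bars in the PAR-CLIP control.

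Messages of secreted plasma proteins formed the group with most control sites. Of 48 such genes with a site in any library, 8 had a control site (16.7%, against 1.76% of all genes). HITS-CLIP controls 1 and 2 had 3 and 6 of them and the PAR-CLIP control 7, all through sites of more than 25 nt. Over all gene lists the share of genes with a control site was 7.28%. The plasma protein share was not the largest, as the cytoskeleton list had 7 of 35 genes (20%). By length, the plasma protein list held 47.5%, 40.3% and 30.3% of the covered nt of HITS-CLIP control 1, HITS-CLIP control 2 and the PAR-CLIP control. In the AEG1 libraries it held 11.5% and 12.2% in HITS-CLIP and 1.37% in PAR-CLIP. ALB alone held 43.7%, 26.3% and 12.4% of the covered nt of the controls, in the same order. In HITS-CLIP control 1 the rest of the list was 45 nt on SERPINA1 and 46 nt on GC, of 2390 nt. Without ALB its share there was thus below that of HITS-CLIP AEG1, while in HITS-CLIP control 2 and the PAR-CLIP control it stayed above that of AEG1. The list was drawn up with earlier results of these data known, so its share is a description.

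ALB had control sites over much of its length. Its sites covered 1045, 814 and 1064 nt in HITS-CLIP control 1, HITS-CLIP control 2 and the PAR-CLIP control, and 523 nt were covered in all 3. The highest control scores on ALB were 0.36, 0.36 and -0.57 in that order. In the AEG1 libraries the highest scores were 6.31 and 5.34 for HITS-CLIP and 5.22 for PAR-CLIP, above every control value. All control sites lay between nt 261 and 1860 of the mRNA, whose furthest site end in any library was nt 2234.

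**Figure D3:**
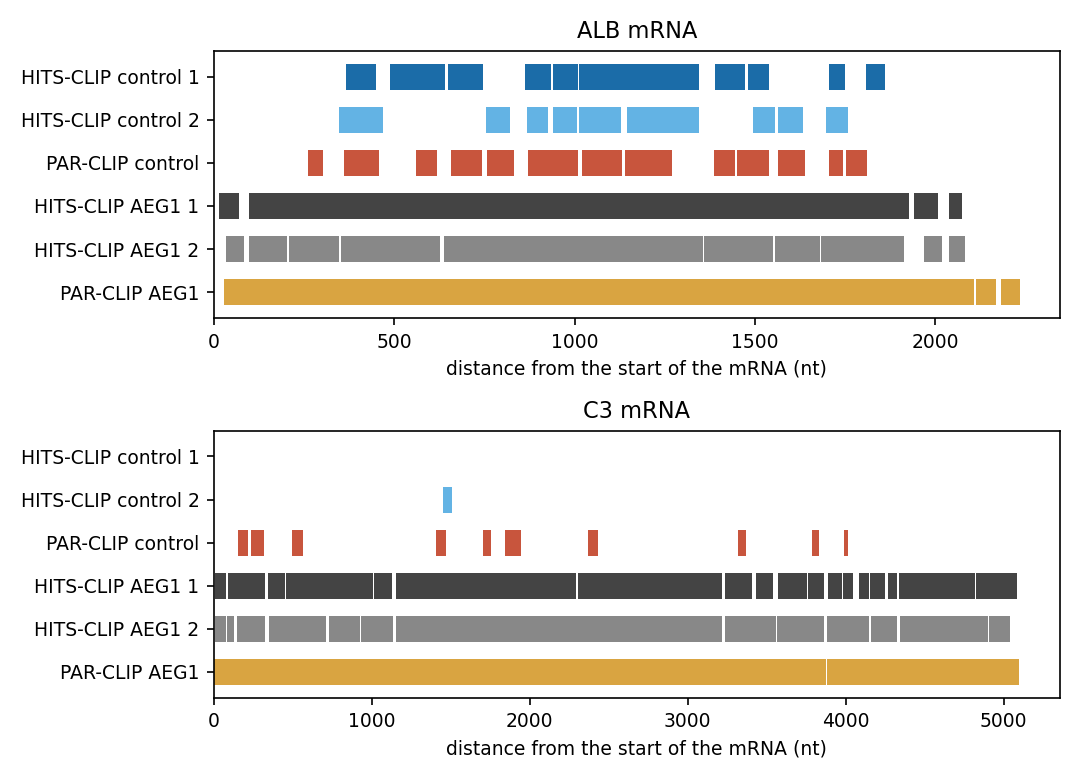
Sites on the ALB and C3 mRNAs in the 6 libraries, drawn to scale as distance from the start of the mRNA in nt, with 1 row per library. Control sites on ALB are spread over the middle of the message in every control, whereas C3 has 0 and 1 sites in the HITS-CLIP controls and 10 in the PAR-CLIP control, and AEG1 sites are longer and fill most of both messages.

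SERPINA1, encoding the protease inhibitor alpha-1-antitrypsin, had 1, 2 and 4 control sites. The sole site of HITS-CLIP control 1 (nt 254 to 298) and the 2 of HITS-CLIP control 2 (nt 1106 to 1143 and 1329 to 1386) did not overlap each other. Each overlapped a PAR-CLIP control site, at nt 224 to 297, 1093 to 1159 and 1310 to 1399. The highest control scores were 0.30, 1.31 and 1.31, against 7.50, 8.36 and 7.38 in the AEG1 libraries.

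GC, the vitamin D-binding protein, also had sites in all 3 controls, but at different places. They lay at nt 1612 to 1657 in HITS-CLIP control 1, nt 1002 to 1112 and 1126 to 1193 in HITS-CLIP control 2, and between nt 558 and 858 in the PAR-CLIP control. No base was covered in more than 1 control. The highest scores were 12.58, 14.75 and 13.16 without UV and 20.28, 20.55 and 20.23 with it.

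Of the other plasma protein messages with control sites, all but SERPINF1 had more sites in the PAR-CLIP control than in either HITS-CLIP control. The PAR-CLIP control had 4.68 times as many wider sites as the HITS-CLIP mean. Plasma protein messages held 29.9% of its wider sites, against 61.9% and 55.2% in HITS-CLIP controls 1 and 2. C3, the central complement component, had 0 and 1 sites in the HITS-CLIP controls and 10 in the PAR-CLIP control, spread from nt 150 to 4015. A2M, a broad protease inhibitor, had 0, 1 and 2 sites. AHSG and APOB had 2 and 1 sites in the PAR-CLIP control alone, and SERPINF1 had 1 site in HITS-CLIP control 2 alone. AFP, APOA1, TTR, TF and the fibrinogen chains FGA, FGB and FGG, with sites in the AEG1 libraries, had 0 control sites. Not every plasma protein message with AEG1 sites was thus represented.

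DKK1, a secreted inhibitor of Wnt signalling, was present in all 3 controls with 2, 1 and 1 sites. Its sites in HITS-CLIP control 1 (nt 531 to 589 and 732 to 795) overlapped that of the PAR-CLIP control (nt 546 to 594) and that of HITS-CLIP control 2 (nt 715 to 764), respectively. Control scores reached 6.75, 6.84 and 6.83, against 13.31, 13.27 and 13.87 in the AEG1 libraries. GDF15, a stress-induced secreted factor, had 1 PAR-CLIP control site.

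Among transporters of membranes, 2 of 31 listed genes had a control site (6.45%, against 1.76% of all genes), near the 7.28% over all lists. They were ABCC3 and SLC38A2, an amino acid transporter with 1 PAR-CLIP control site. TM9SF2, a membrane protein of the Golgi and endosomes, had 1 site each in HITS-CLIP control 1 and the PAR-CLIP control, at places that did not overlap.

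Over all lists, 46 of 632 genes with a site in any library had a control site (7.28%, against 1.76% of all genes). Folding and quality control in the endoplasmic reticulum gave 3 of 38 listed genes (7.89%), near the share over all lists, namely the disulfide isomerase P4HB and the chaperones HSP90B1 and CALR. P4HB had 1 site each in HITS-CLIP control 2 and the PAR-CLIP control. Genes of translocation and glycosylation gave 0 of 41 in any control, beside the 1.76% of all genes; a list of that size cannot tell these shares apart. Lysosomal genes gave 2 of 35 (5.71%), PSAP, the precursor of the saposins, and NAGLU. The PSAP sites of HITS-CLIP control 1 (nt 726 to 774) and the PAR-CLIP control (nt 675 to 771) overlapped.

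Listed messages of the cytoskeleton and of ribosomal proteins had control sites in PAR-CLIP alone, which did not hold for every cytosolic list. In HITS-CLIP control 1, HITS-CLIP control 2 and the PAR-CLIP control, signalling enzymes of the cytosol gave 0, 2 and 1 of 29 genes. The proteasome, chaperonin and cytosolic chaperones gave 1, 1 and 0 of 39, and glycolysis and cytosolic metabolism 0, 0 and 1 of 25. Their shares in any control were 6.90%, 2.56% and 4%, against 1.76% of all genes and 7.28% over all lists. With 1 or 2 genes per list, these shares cannot be told apart. The cytoskeleton list gave 0 and 0 of 35 genes in the HITS-CLIP controls and 7 in the PAR-CLIP control (against 0.805% of all genes in that library). They were the actins ACTB and ACTG1, with 2 sites each, and ACTN4, KRT8, PFN1, SPTBN1 and TUBB with 1 each. Ribosomal proteins gave 4 of 80 (5%, against the same 0.805%), all in the PAR-CLIP control (RPL17, RPL41, RPL8 and RPS27A). Over all lists, 36 of 632 genes had a site in that control. Ribosomal protein messages other than these had sites in the AEG1 libraries and not in a control.

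Translation factors gave 3 of 39 genes in any control (7.69%, against 1.76% of all genes), near the 7.28% over all lists. EEF1A1, which delivers aminoacyl-tRNA to the ribosome, had 1, 0 and 8 control sites, at nt 89 to 176 in HITS-CLIP control 1 and from nt 147 to 1645 in the PAR-CLIP control. EEF2 and EEF1G had 1 PAR-CLIP control site each. The ferritin chains FTH1 and FTL were the 2 of 10 genes of iron storage and metal binding with a control site, in a list too small for its share to be read against that of all genes. FTH1 had sites at nt 495 to 546 in HITS-CLIP control 1 and nt 478 to 549 in the PAR-CLIP control, and FTL had 3 in the PAR-CLIP control alone. Actins, ferritins, EEF1A1, TUBB and ribosomal proteins have near-identical relatives or pseudogenes, and the assignment of their reads to a single message is uncertain.

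PLCG2, a phospholipase C of cell signalling, had wider sites at nearly the same places in both methods. HITS-CLIP control 2 had sites at nt 7943 to 8018 and 8118 to 8168, and the PAR-CLIP control at nt 7953 to 8029 and 8111 to 8176. HITS-CLIP control 1 had none. The highest scores were 12.60 and 12.18 in these controls, against 16.92 and 17.20 in HITS-CLIP AEG1 and 15.69 in PAR-CLIP AEG1. MTDH, which encodes AEG1, had 1 control site, at nt 885 to 991 in the PAR-CLIP control with a score of 5.996, against highest AEG1 scores of 9.24, 10.12 and 12.34. Whether that site came from the endogenous message or the tagged transgene cannot be told apart from these files.

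Many short sites recurred at the same bases. Of 39 short sites in HITS-CLIP control 1, 27 overlapped a site of HITS-CLIP control 2 (69.2%, exact 95% interval 52.4 to 83.0). Of these, 26 began within 1 nt of each other, 23 matched within 1 nt at both ends and 11 had identical ends. In the other direction, 27 of the 61 short sites of control 2 overlapped a site of control 1 (44.3%, 31.5 to 57.6), so most of its short sites did not recur there. Wider sites recurred less exactly. Of 21 in HITS-CLIP control 1, 9 overlapped one of control 2 (42.9%, 21.8 to 66.0), and 1 of these began within 1 nt. Of 29 in control 2, 9 overlapped a site of control 1 (31.0%, 15.3 to 50.8). In either direction the intervals for short and wider sites overlapped.

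The short site found in all 3 controls was on ABCC3, an exporter of conjugated organic anions. It ran from nt 1203 to 1221 in all 3 controls, with scores of 8.88 and 7.88 in HITS-CLIP and 8.79 in PAR-CLIP. It was the only short site shared between the methods. Sites with identical ends in both HITS-CLIP controls included nt 288 to 306 of MRPL54, a mitochondrial ribosomal protein, nt 2134 to 2152 of ITIH5, nt 1229 to 1249 of ATG7, an enzyme of autophagy, and nt 597 to 615 of NIF3L1. Other recurrent sites lay on CBX5 (heterochromatin protein 1 alpha), MKI67 (the proliferation marker Ki-67), DROSHA (the nuclease that starts microRNA processing), PCF11 (a factor of mRNA 3′ end formation) and PATL1 (an mRNA decapping factor). The encoded proteins are spread over the nucleus, cytosol, mitochondria and membranes. None of the 77 genes with a short control site was on the list of plasma proteins. That list held 48 of the 8197 genes with a site, too few for the absence to be read as a contrast with wider sites.

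All 27 recurrent short sites were met again in irradiated cells. Both HITS-CLIP AEG1 libraries had a site over 25 of them and 1 library over the other 2 (CBX5 and ABHD14B). PAR-CLIP AEG1 had a site over 15, and the PAR-CLIP control over 1. For the 25, the AEG1 mean minus the control mean had a median of 0.54 and ranged from -0.50 to 1.70, while the 2 controls differed from each other by a median of 0.58 and by up to 1.67. Both AEG1 scores lay above both control scores by more than 0.01 at 5 sites (ABCC3, AGGF1, EIF2B4, RNF157 and SNX12), and below them at 1 (NIF3L1). At the other 19 the groups overlapped or tied. With 2 libraries against 2, the smallest two-sided exact permutation p is 0.333, so single sites cannot pass 0.05.

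**Figure D4:**
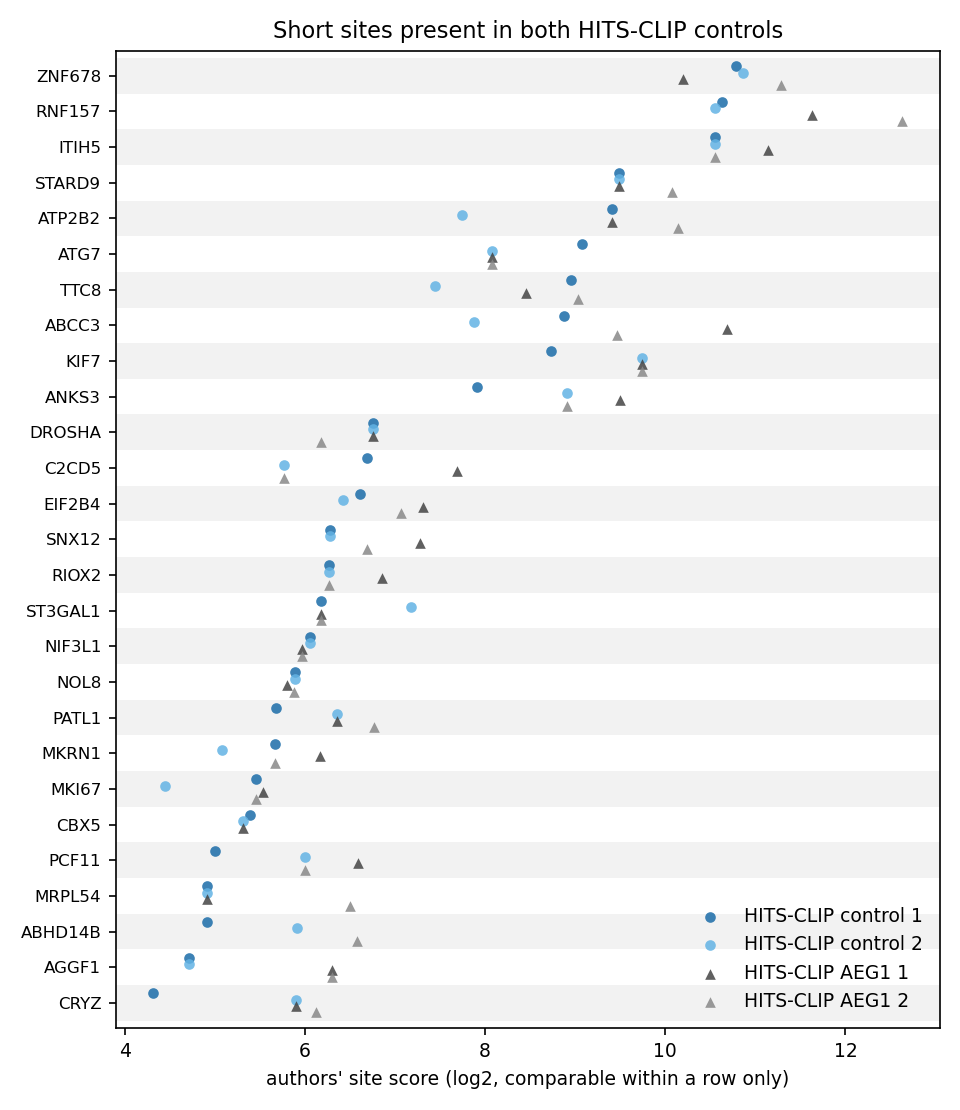
Authors' site scores on a log2 scale at the 27 short sites present in both HITS-CLIP controls, with circles for the 2 controls, triangles for the 2 HITS-CLIP AEG1 libraries and 1 row per gene. Within most rows circles and triangles intermix, and the AEG1 mean exceeds the control mean by 0.54 at the median site with both AEG1 values.

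NIF3L1 and ATG7 are examples of short sites without a higher score after UV. NIF3L1 scored 6.05 in both controls and 5.97 in both HITS-CLIP AEG1 libraries. ATG7 scored 9.08 and 8.08 without UV and 8.08 in either AEG1 library of the method. RNF157, a ubiquitin ligase, went the other way, with 10.63 and 10.55 in the controls against 11.63 and 12.63. ABCC3 had 8.88 and 7.88 in the controls against 10.69 and 9.46 at overlapping AEG1 sites.

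Width thus went with how far a control site stood below its AEG1 counterpart. For short sites, the highest overlapping score of the same method's AEG1 libraries exceeded the control score by a median of 0.74 in HITS-CLIP control 1 and 0.58 in control 2. For sites of more than 50 nt, the median differences were 7.61 and 6.60 in HITS-CLIP and 6.75 in PAR-CLIP. Against single AEG1 libraries, sites of more than 25 nt gave medians of 7.29 and 5.22 for control 1, 6.19 and 5.34 for control 2, and 6.57 for the PAR-CLIP control, with a range of 0.0040 to 9.68 there. AEG1 sites over short HITS-CLIP control sites had a median width of 21 nt, while those over control sites of more than 50 nt had median widths of 1585 and 919 nt in HITS-CLIP and 1428 nt in PAR-CLIP. ALB alone set much of the HITS-CLIP values: without it, the median widths were 290 nt over 6 sites of control 1, 261 nt over 12 of control 2 and 1159 nt over 88 of the PAR-CLIP control. The median score differences without ALB were 6.55, 5.78 and 6.51. The width of the AEG1 site therefore moved with the score difference, and its part in it was not tested.

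A few wider sites did not follow this pattern. VCP, an ATPase that extracts proteins from complexes, had a 32 nt site in HITS-CLIP control 1 whose score equalled that of the AEG1 site. The 37 nt PATL1 site of HITS-CLIP control 2 and its 48 nt HNRNPA2B1 site differed from AEG1 by 0.41 and 0.59. In the PAR-CLIP control, a 48 nt site on RAPGEF1 differed by 0.0040.

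**Figure D5:**
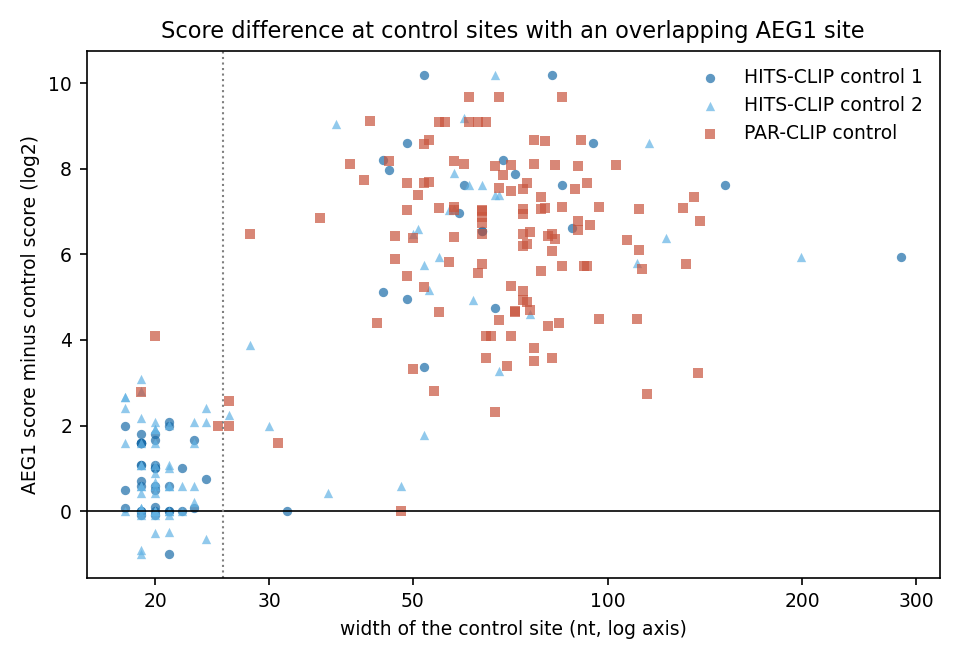
Highest score of the overlapping AEG1 sites of the same method minus the control score, on a log2 scale, against the width of the control site in nt on a log axis, with 1 point per control site. Sites left of the dotted line at 25 nt lie between -1 and 4.08, while most wider sites of the 3 controls lie between 2 and 10.

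Nearly all control sites overlapped an AEG1 site by at least 1 nt. A site of the same method's AEG1 libraries overlapped 58 of 60 (96.7%), 80 of 90 (88.9%) and 120 of 121 (99.2%) control sites. Those lying wholly within such a site were fewer, at 49 of 60, 63 of 90 and 117 of 121. HITS-CLIP AEG1 sites also overlapped 110 of 121 PAR-CLIP control sites (90.9%). PAR-CLIP AEG1 sites overlapped 23 of 39 and 33 of 61 short sites of the HITS-CLIP controls, and 21 of 21 and 27 of 29 of their wider sites. The converse share was small and depended on width. Controls touched 39 of 434 short HITS-CLIP AEG1 sites in library 1 (8.99%) and 47 of 396 in library 2 (11.9%), but 0.538% and 0.704% of their wider sites. In PAR-CLIP AEG1 they touched 0 of 145 short and 73 of 59940 wider sites (0.122%). AEG1 replicates overlapped each other at 51.4% and 59.1% of their short sites and at 64.1% and 72.2% of their wider ones.

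The control sites without a counterpart in any AEG1 library were short. All 7 that overlapped no site in any AEG1 library were from HITS-CLIP control 2, 18 to 21 nt wide, on AGO4, BLTP1, FZD3, LATS2, PROCR, RBM10 and STAT6. FZD3, a Wnt receptor, and PROCR, a receptor for protein C, were the only control genes with no AEG1 site anywhere on the message. Genes with a control site and none in the same method's AEG1 libraries numbered 2 for HITS-CLIP control 1 (MED13L and NDUFV1), 8 for control 2 (AKAP6, BLTP1, CDC42BPB, FZD3, LATS2, PROCR, RBM10 and STAT6) and 1 for PAR-CLIP (SPN). Short sites found in a single HITS-CLIP control were also present with UV, at 10 of 12 for control 1 and 25 of 34 for control 2 in either HITS-CLIP AEG1 library.

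On the position along the message, short and wider sites differed over all sites, but the size of the difference depended on how the length of the message was set. The length of each mRNA was taken as its furthest site end in any library, and the midpoint of a site was given as a percentage of it. Over all sites, the median was 73.5% and 66.4% for the short sites of HITS-CLIP controls 1 and 2, and 43.7% and 43.6% for their wider sites. Of 4 equal segments from the 5′ end, the last held 19 of 39 and 25 of 61 short sites. Where a message had no site elsewhere, however, the control site itself set the end. On the messages with a site elsewhere, a restriction chosen after seeing the data, the short-site medians were 62.6% for 31 sites and 45.9% for 51, the latter close to the wider sites. In the PAR-CLIP control the median over all sites was 38.7%, and the segments held 33, 40, 28 and 20 of 121 sites. Regions of the messages (coding or untranslated) were not analysed here.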

How the data were processed

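RNA sites were read from the deposited lists of 6 libraries, 1 list per library, which place each site on a RefSeq mRNA and score it. The score deposited by the authors behaves as a log2 value: 2 to the power of it, divided by the lowest such value on the transcript, was a whole number within 1% for 102 of the 176 control sites above that lowest value with a ratio of up to 10. The scale was read from the values and is not stated. The submitters' processing notes list Bowtie and give no version of it. Not given in the sources used here are the site caller, its threshold, the reference, the handling of repeated reads and the use of the controls. Neither are read depths, so no floors were set. If a caller scales by library or by transcript, scores shift accordingly.

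Starts were taken as 0-based and are printed 1-based. Current symbols came from RefSeq (GRCh38.p14), where 8146 of 8204 transcripts matched by accession, 30 by symbol, 20 by a synonym and 8 not at all. Sites of 25 nt or less were called short. Overlap meant at least 1 shared nt on the same transcript. Widths, shares with exact Clopper-Pearson 95% intervals and score differences on the same transcript were computed per library with Python 3.11.15, pandas 2.3.3, NumPy 2.4.6 and SciPy 1.17.1. The overlap step was tested on simulated data. No test was run over sites or genes.

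The control sites and the 21 gene lists were chosen with earlier results of these data known. Genes named by rule have a site in at least 2 controls, are among the 10 with most sites or the 5 with the highest score in a control, are the 2 members of a list with most control sites, or lack a site in AEG1 of the same method, with MTDH. Other genes were named after their values were seen, and some genes picked by the rule are not reported. Alternatives covered the limit for short sites, merging within 50 nt, stricter overlap, ALB left out, other positions and each HITS-CLIP control left out. Restricting positions to messages with another site, scores to short sites, and widths of overlapping AEG1 sites to genes other than ALB were added after seeing the data.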

Additional observations from a re-analysis of the deposited data

Results flagged for a closer look

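Between control and AEG1, 4 of the genes reported here had more sites in HITS-CLIP but fewer in PAR-CLIP. C3 went from 0 and 1 to 24 and 21 in HITS-CLIP and from 10 to 4 in PAR-CLIP, a difference of -6. EEF1A1 went from 1 and 0 to 12 and 12, and from 8 to 4, a difference of -4. FTL went from 0 and 0 to 6 and 5, and from 3 to 1, a difference of -2. SPN went from 0 and 0 to 1 and 2, and from 1 to 0, a difference of -1. In PAR-CLIP the covered nt nevertheless rose from control to AEG1 on 3 of these genes, where the AEG1 sites were fewer but longer. They rose from 632 to 5095 on C3, from 563 to 1970 on EEF1A1 and from 229 to 878 on FTL. On SPN they fell from 23 to 0. The difference between the methods was not tested, and a number of sites is not an amount of RNA.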

How the results depend on the processing

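Of 83 alternative values for the comparisons, 46 stayed within the limits set around the reported value and 37 did not. The limits were a spread or interval, or a factor of 1.5 for counts. PAR-CLIP medians had no spread, so any change fell outside. Either HITS-CLIP control always lies within the SD around the mean of both. A ratio that crossed 1 was counted as outside, as the gene ratio did without HITS-CLIP control 1. The sites ratio was 4.68 over 25 nt and 5.5 over 50 nt, and the gene ratio 4.59 and 6.5, or 0.846 to 1.35 with either HITS-CLIP control left out. The HITS-CLIP median width was 20 nt with sites merged, with 1 site per gene or without ALB; the PAR-CLIP median was 72 nt with 1 site per gene and 69.5 nt without ALB. The HITS-CLIP short share was 46.7% at a 20 nt limit, 68.6% at 30 nt, 77.5% without ALB and 73.5% with sites merged. Genes shared by both HITS-CLIP controls were 1 with at least 2 sites and 5 over 25 nt. Genes shared between methods were 5 with at least 2 sites and 10 to 12 with a HITS-CLIP control left out. Overlap of control 1 with 2 was 38.1% over 25 nt, and of control 2 with 1 27.6%. Overlap of PAR-CLIP with HITS-CLIP controls was 12.96% without ALB and 13.2% to 14.9% with a HITS-CLIP control left out. Overlap with AEG1 sites of the other method was 70.0% for HITS-CLIP and 90.9% for PAR-CLIP controls, and 100% for PAR-CLIP with its own method over 25 nt. The PAR-CLIP relative position, 38.7%, was 37.6% from starts, 38.7% to PAR-CLIP ends or on messages with another site, and 38.5% without ALB. The score difference over all sites, 1.59 in HITS-CLIP and 6.51 in PAR-CLIP, was 1.82 and 6.96 against the whole transcript, 6.89 and 6.57 over 25 nt, and 0.66 and 2.78 for short sites. Plasma protein genes in at least 2 controls were 5 of 8, and members of all lists 15 of 46. Of 80 named genes, 39 had a control site over 25 nt. No paired analysis was possible because no result here comes from a test; as values alone, AEG1 minus control scores at the 25 recurrent short sites had medians of 0.58 for libraries numbered 1 and 0.41 for those numbered 2. Read depth was unknown, the PAR-CLIP groups had 1 library each, and the cause of each shift was not tested.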
